A study of Mus musculus with 4 samples.

Results

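The 44 genes described here are S-phase and mitotic genes of the cell cycle, read in single cells of mouse colonic organoids. They were taken by gene symbol from the deposited gene table, in which all 44 were found among 30360 genes. By role they are 27 mitotic genes (from Mki67 and Top2a to Cdkn3), 15 S-phase genes (from Mcm2 to Dut), and Stmn1 and Hmgb2, which are abundant in dividing cells. The organoids were grown from the distal colon of 16-week-old mice, either wildtype or Tnfr2-/-, the latter without TNF receptor 2 (encoded by Tnfrsf1b) in every cell of the body. After passage 5, cultures were left untreated or received TNF (tumor necrosis factor) at 20 ng/ml from day 1 to day 6, and all were dissociated on day 7 and depleted of apoptotic cells. This made 4 groups with 1 library each, in the order wildtype untreated, wildtype TNF, then Tnfr2-/- untreated, then Tnfr2-/- TNF. A row of 4 values keeps this order throughout. Every difference is therefore between single cultures, with no replicate check and no test between groups.

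A dividing cell copies its DNA in S phase and separates the copies in mitosis. S-phase genes encode the MCM helicase, the sliding clamp Pcna and enzymes that make nucleotides, and they are switched on by E2F factors as a cell leaves G1. Mitotic genes encode cyclins, kinases, centromere proteins and spindle motors, and they rise in G2 through a promoter element called the CHR. In the colon the dividing cells lie low in the crypt, and cells stop dividing as they become absorptive, goblet or enteroendocrine cells.

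The libraries held 2589, 1469, 1117 and 980 cells with a median of 26293, 35398, 39112 and 37506.5 unique molecular identifiers (UMIs) per cell. Of these, 1128, 1163, 1023 and 858 cells were epithelial and 1430, 306, 90 and 122 were mesenchymal in the deposited annotation. Progenitor.1, the class most used below, held 5132 to 6937 CPM (UMIs of a gene scaled to the same total in every sum) of 4 epithelial markers and 1.37 to 6.52 CPM of 5 mesenchymal markers per library. Tnfrsf1b stood at 9.76, 14.0, 2.05 and 7.59 CPM over all cells, lower in Tnfr2-/- but not absent. Where in the gene these UMIs lie was not tested, so the level is no check of the deletion. Xist stood at 616 and 649 CPM in the wildtype libraries and at 0.169 and 0.0898 CPM in the Tnfr2-/- libraries. The Y-linked Ddx3y was detected in all 4, at 0.940, 6.64, 3.16 and 7.52 CPM. Eif2s3y, also Y-linked, stood at 1.55, 10.6, 1.79 and 3.55 CPM. The genotypes thus differed in sex-linked genes too, and the 2 cannot be told apart. Y-linked genes also differed between untreated and TNF within each genotype, most in wildtype. The part of this in the TNF comparisons was not tested. Only 3 barcodes occurred in more than 1 library.

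The promoters of the 2 kinds of gene differed in sequence. RefSeq promoters (GRCm38.p6, 250 bases before to 50 after the transcription start) were matched by symbol to 38 of the 44 genes, some with more than 1 promoter. They were searched on both strands for the CHR (TTTGAA or TTCGAA), the CCAAT box (CCAAT) that lies near it, and the E2F site (TTTCCCGC, TTTGGCGC, TTTGCCGC or TTTCGCGC). A CHR was present in 21 of 25 mitotic promoters (84%) and in 2 of 15 S-phase promoters (13.3%), against 19.2% of all 32851 promoters. A CHR together with a CCAAT box was present in 20 mitotic promoters (80%) and 2 S-phase promoters (13.3%), against 7.52% of all. The E2F letters were the other way round, in 1 mitotic promoter (4%, that of Cdk1) and 6 S-phase promoters (40%), against 2.26% of all. The CCAAT box alone was frequent in both, at 88% and 80%, against 37.4% of all. Matches to letters are a description and not evidence of binding, and the promoters of Birc5, Nusap1, Dut, Tyms and Ung held none of the 3.

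The promoters of 6 genes are shown to set the 2 layouts side by side, the first 4 mitotic and the others S-phase. Plk1 is a mitotic kinase (chr7:122159185-122159484, plus strand), and Cdc20 activates the ubiquitin ligase that ends metaphase (chr4:118437294-118437593, minus strand). Ube2c is the conjugating enzyme of that ligase (chr2:164769679-164769978, plus strand), and Cdk1 is the kinase that drives entry into mitosis (chr10:69352863-69353162, minus strand). Mcm5 is a subunit of the replicative helicase (chr8:75109259-75109558, plus strand), and Pclaf binds Pcna (chr9:65890073-65890372, plus strand). Each stretch covers the end of the upstream region and the first transcribed bases of its gene. Capitals mark every match to the CHR, CCAAT box or E2F letters on either strand, and neighbouring or overlapping matches run together (2 E2F matches in Mcm5 and 2 CCAAT boxes in Ube2c).
Plk1: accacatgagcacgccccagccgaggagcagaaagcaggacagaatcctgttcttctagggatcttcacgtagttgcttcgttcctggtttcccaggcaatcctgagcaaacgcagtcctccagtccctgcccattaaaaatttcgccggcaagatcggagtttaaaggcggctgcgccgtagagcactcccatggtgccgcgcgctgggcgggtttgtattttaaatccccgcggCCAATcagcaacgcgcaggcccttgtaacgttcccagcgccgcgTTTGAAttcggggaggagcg
Cdc20: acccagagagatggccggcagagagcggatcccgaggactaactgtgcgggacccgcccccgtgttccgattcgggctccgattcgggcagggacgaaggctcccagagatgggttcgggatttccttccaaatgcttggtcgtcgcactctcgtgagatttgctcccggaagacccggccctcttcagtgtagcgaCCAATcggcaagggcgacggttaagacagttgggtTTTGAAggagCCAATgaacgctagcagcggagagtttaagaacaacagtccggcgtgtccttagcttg
Ube2c: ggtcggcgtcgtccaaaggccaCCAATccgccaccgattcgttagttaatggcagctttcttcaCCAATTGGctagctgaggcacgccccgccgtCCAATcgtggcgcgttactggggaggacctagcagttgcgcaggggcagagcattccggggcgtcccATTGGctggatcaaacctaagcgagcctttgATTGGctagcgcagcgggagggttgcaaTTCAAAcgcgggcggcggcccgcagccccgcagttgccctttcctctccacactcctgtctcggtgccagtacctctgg
Cdk1: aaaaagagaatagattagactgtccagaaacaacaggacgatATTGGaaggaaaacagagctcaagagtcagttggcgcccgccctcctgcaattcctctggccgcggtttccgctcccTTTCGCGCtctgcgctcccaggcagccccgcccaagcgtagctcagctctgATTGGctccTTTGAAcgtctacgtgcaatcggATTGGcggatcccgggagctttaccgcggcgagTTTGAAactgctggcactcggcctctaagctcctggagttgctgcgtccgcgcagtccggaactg
Mcm5: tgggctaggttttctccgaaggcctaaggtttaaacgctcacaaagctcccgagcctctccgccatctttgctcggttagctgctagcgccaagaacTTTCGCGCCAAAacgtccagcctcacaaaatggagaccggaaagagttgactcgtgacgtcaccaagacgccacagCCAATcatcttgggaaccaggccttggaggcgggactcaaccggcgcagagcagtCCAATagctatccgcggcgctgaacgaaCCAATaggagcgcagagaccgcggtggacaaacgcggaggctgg
Pclaf: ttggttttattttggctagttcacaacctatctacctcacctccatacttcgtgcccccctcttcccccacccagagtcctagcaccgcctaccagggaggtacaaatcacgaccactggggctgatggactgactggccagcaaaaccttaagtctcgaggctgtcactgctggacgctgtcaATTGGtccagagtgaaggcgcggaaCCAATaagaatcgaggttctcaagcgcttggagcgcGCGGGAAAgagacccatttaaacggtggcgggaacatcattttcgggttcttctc

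In the mitotic promoters the CHR sat close to the start. Counting from the transcription start, with negative values upstream, the CHR match nearest the start lay at a median position of 3 (range -111 to 41), and in 19 of 21 promoters it lay within 60 bases of the start. It was at -18 in Cdc20, -29 in Ube2c, -15 in Cdk1 and 31 in Plk1. In the 20 mitotic promoters with both motifs, a median of 23 bases lay between the closest pair of a CHR and a CCAAT box. The CHR of that pair need not be the one nearest the start. In Cdca8 the 2 matches overlapped by a base. The 2 S-phase promoters with a CHR held it farther upstream, at a median of -121.5.

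**Figure D1:**
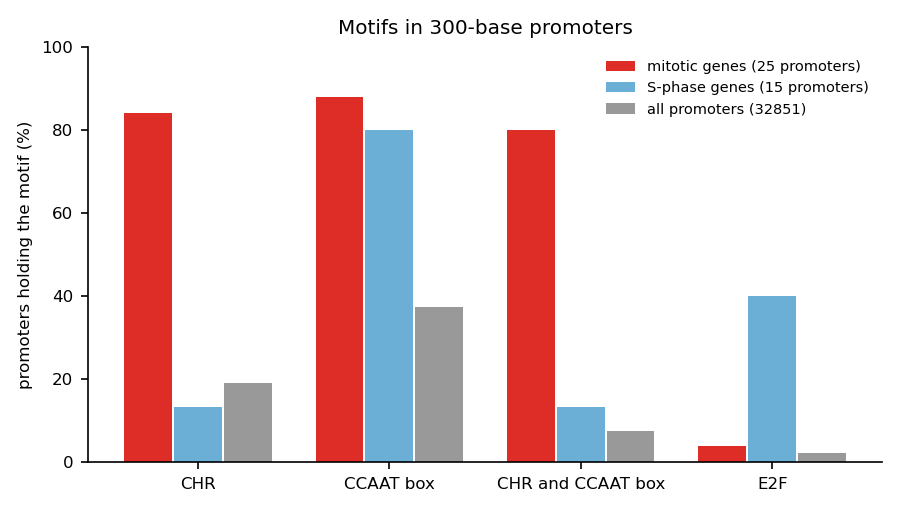
Share of 300-base RefSeq promoters (vertical axis, percent) that hold the CHR, the CCAAT box, both, or the E2F letters, for mitotic genes, S-phase genes and all promoters. The CHR bars stand at 84%, 13.3% and 19.2% and the E2F bars at 4%, 40% and 2.26%.

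To count dividing cells, each cell was thinned to 5000 UMIs and called a cell with mitotic signal if at least 5 of them fell on the 27 mitotic genes, and a cell with S-phase signal if at least 5 fell on the 15 S-phase genes. Among epithelial cells the mitotic share was 25.1% (272 of 1085 cells; 95% exact binomial interval 22.5 to 27.8), 24.5% (214 of 873; interval 21.7 to 27.5), 29.4% (291 of 990; interval 26.6 to 32.3) and 6.15% (52 of 846; interval 4.62 to 7.98). The S-phase share followed the same order, at 21.9%, 19.9%, 26.1% and 4.14%. The Tnfr2-/- TNF culture thus stood apart from the other 3 in both shares, and its interval overlapped none of theirs. Tnfr2-/- exceeded wildtype by 4.32 points without TNF (0.425 to 8.22) and was below it by 18.4 points with TNF (interval of the difference -21.7 to -15.0). TNF went with a difference of -0.556 points in wildtype (-4.45 to 3.38) and of -23.2 points in Tnfr2-/- (-26.6 to -19.9). Over the 3 progenitor classes alone (Progenitor.1 to Progenitor.3) the mitotic share was 38.6%, 27.2%, 31.8% and 6.42%. There TNF differed from untreated by -11.45 points in wildtype (-16.5 to -6.40). Tnfr2-/- differed from wildtype by -6.83 points without TNF (-11.7 to -1.96) and by -20.8 points with TNF. The sign of the genotype difference without TNF thus depended on the classes counted. Before thinning, absorptive cells numbered 319, 19, 11 and 1. Counting error is all that these intervals cover.

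Depth was checked beside these shares. Thinning left out 43, 290, 33 and 12 epithelial cells, and in wildtype TNF these included most of the Secretory-Reg4-Ang4 class, whose median cell held 1957.5 UMIs. Without thinning, the mitotic shares were 48.0%, 44.2%, 57.0% and 26.3%. Cells with mitotic signal held a median of 45346, 36886.5, 58367 and 52956 UMIs before thinning, against 36489, 39596, 37480 and 36679 in the other epithelial cells. Near the limit of 5 UMIs lay 49, 40, 64 and 17 cells with 3 to 4 UMIs and 36, 18, 30 and 2 with 5 to 6. Post-mitotic classes served as background. Absorptive cells of the wildtype untreated library had a mitotic share of 0.946% (3 of 317; median depth 41067 UMIs), and their unthinned share was 15.7%. Their S-phase share was 0.315%. In the other libraries 0 of 19, 1 of 11 and 0 of 1 absorptive cells held mitotic signal. Enteroendocrine cells had 0 of 31, 1 of 29, 0 of 18 and 0 of 27 cells with mitotic signal. A count of 0 of 31 allows a share of up to 9.68% (3 counts) or 11.2% (upper end of the exact interval). S-phase signal was held by 0 of 31, 0 of 29, 2 of 18 and 0 of 27 enteroendocrine cells.

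**Figure D2:**
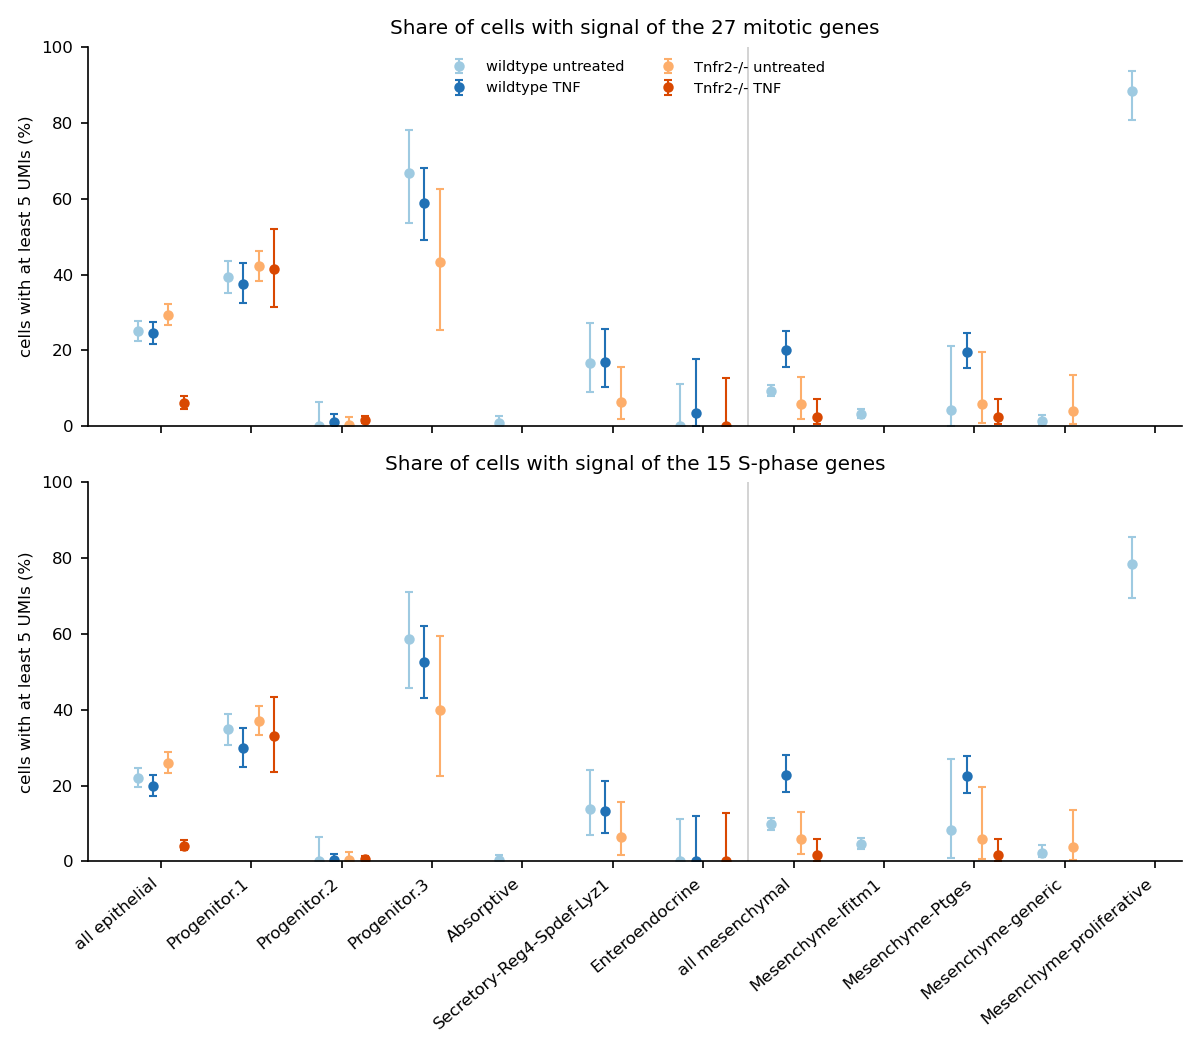
Share of cells (vertical axis, percent) with at least 5 UMIs over the 27 mitotic genes (top) or 15 S-phase genes (bottom) after thinning to 5000 UMIs, by class and library, for classes with at least 20 cells. Points are single libraries and bars 95% exact binomial intervals. Among all epithelial cells the Tnfr2-/- TNF library is the low one (6.15% mitotic), whereas the 4 Progenitor.1 points lie between 37.6% and 42.2%.

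The classes differed widely in these genes. The classes came from a clustering in which the same genes took part, so the contrast between classes is a description of what separated them and no test. In Progenitor.1 the mitotic share was 39.4% (215 of 546 cells), 37.6% (126 of 335), 42.2% (272 of 644) and 41.5% (39 of 94), and the S-phase share was 34.8%, 29.9%, 37.1% and 33.0%. Progenitor.2 held almost none of these cells, with a mitotic share of 0 of 56 (which allows up to 5.36% by 3 counts, or 6.38% by the exact interval), 1.11%, 0.444% and 1.55%. Progenitor.3, a class of shallow cells (median 8040 UMIs), reached 66.7% (42 of 63), 58.9% (66 of 112) and 43.3% (13 of 30; interval 25.5 to 62.6) in the first 3 libraries, and 2 of 6 cells in Tnfr2-/- TNF. Thinning left out 32, 36, 21 and 5 cells of this class, so these shares cover its deeper cells alone. In the secretory class Secretory-Reg4-Spdef-Lyz1 the share was 16.7% (12 of 72), 17.0% (18 of 106) and 6.45% (4 of 62), with 0 of 8 in Tnfr2-/- TNF, and the intervals of these libraries overlapped.

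Within Progenitor.1 the shares did not separate the libraries. The difference between Tnfr2-/- and wildtype was 2.86 points untreated (-2.87 to 8.55) and 3.88 points with TNF (-7.57 to 15.7), and that between TNF and untreated was -1.77 points in wildtype and -0.747 points in Tnfr2-/- (-11.6 to 10.6). All of these intervals include 0 and are wide in Tnfr2-/- TNF, where the class held 94 cells deep enough for the count. The number of cells per class also differed between libraries. Progenitor.1 had 546, 335, 647 and 95 cells, and Progenitor.2 had 62, 273, 233 and 716. Since these genes took part in making the classes, a level share within Progenitor.1 does not separate a change in class numbers from one in dividing cells.

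The cells with mitotic signal were not drawn from the same classes in each library. Progenitor.1 supplied 79.0%, 58.9%, 93.5% and 75% of them. Progenitor.3 supplied 15.4%, 30.8%, 4.47% and 3.85%, and Progenitor.2 supplied 11 of the 52 (21.2%) in Tnfr2-/- TNF. Of epithelial cells with either signal, the share with mitotic signal alone was 30.6%, 32.8%, 30.8% and 47.0% (of 343, 259, 373 and 66 cells), and the last has an interval of 34.6 to 59.7 that overlaps the others. The share with both signals was 48.7%, 49.8%, 47.2% and 31.8%.

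**Figure D3:**
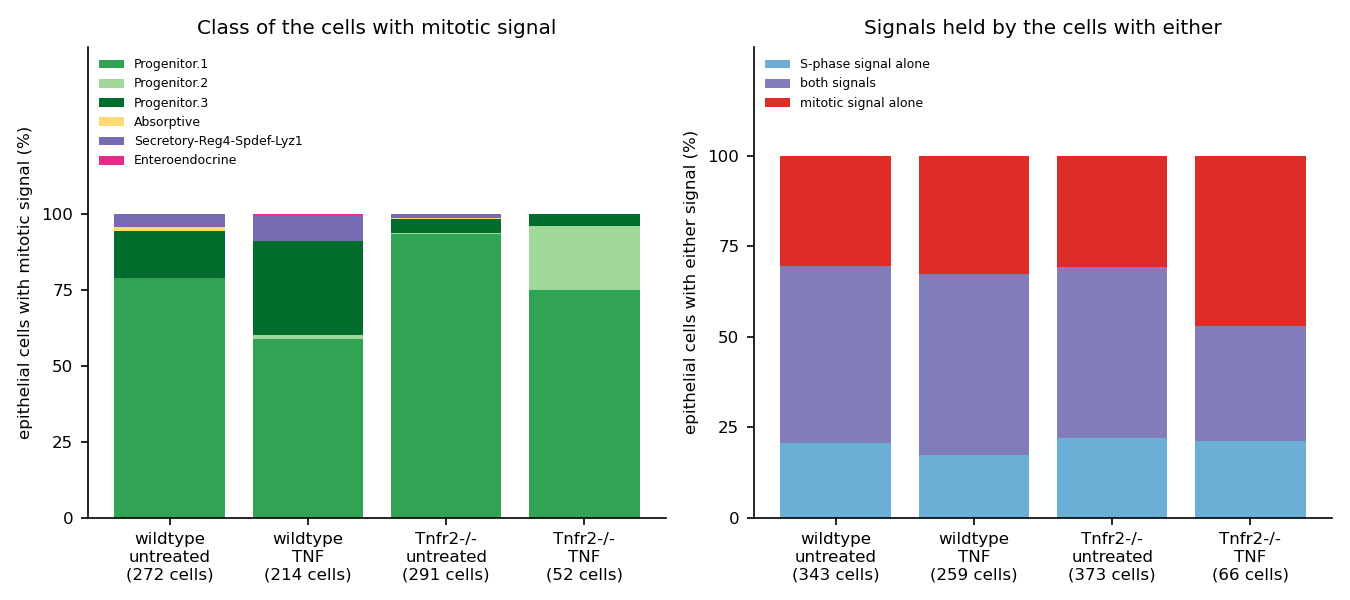
Left, class of the epithelial cells with mitotic signal, and right, the share of epithelial cells with either signal that held S-phase signal alone, both, or mitotic signal alone (vertical axes, percent; each bar is 1 library and sums to 100). Progenitor.2 supplied 21.2% of the mitotic cells in Tnfr2-/- TNF, and mitotic signal alone made up 47.0% of that library's cells with either signal.

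Summed UMIs gave the same order of levels. Over all epithelial cells the 27 mitotic genes held 1204, 1155, 1777 and 483 CPM and the 15 S-phase genes 617, 558, 765 and 227 CPM. Fewer dividing cells and less RNA per dividing cell cannot be told apart in such sums. In Progenitor.1 the mitotic genes held 1977, 1949.7, 2375 and 2827 CPM and the S-phase genes 939.5, 904, 963 and 939.7 CPM. Progenitor.2 was low in every library, at 60.7 to 131 CPM for the mitotic and 104 to 152 CPM for the S-phase genes. The shallow Secretory-Reg4-Ang4 class, found in wildtype TNF alone, held 1299 CPM of mitotic genes and also 597 CPM of mesenchymal markers, a mixture whose part in the result was not tested.

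**Figure D4:**
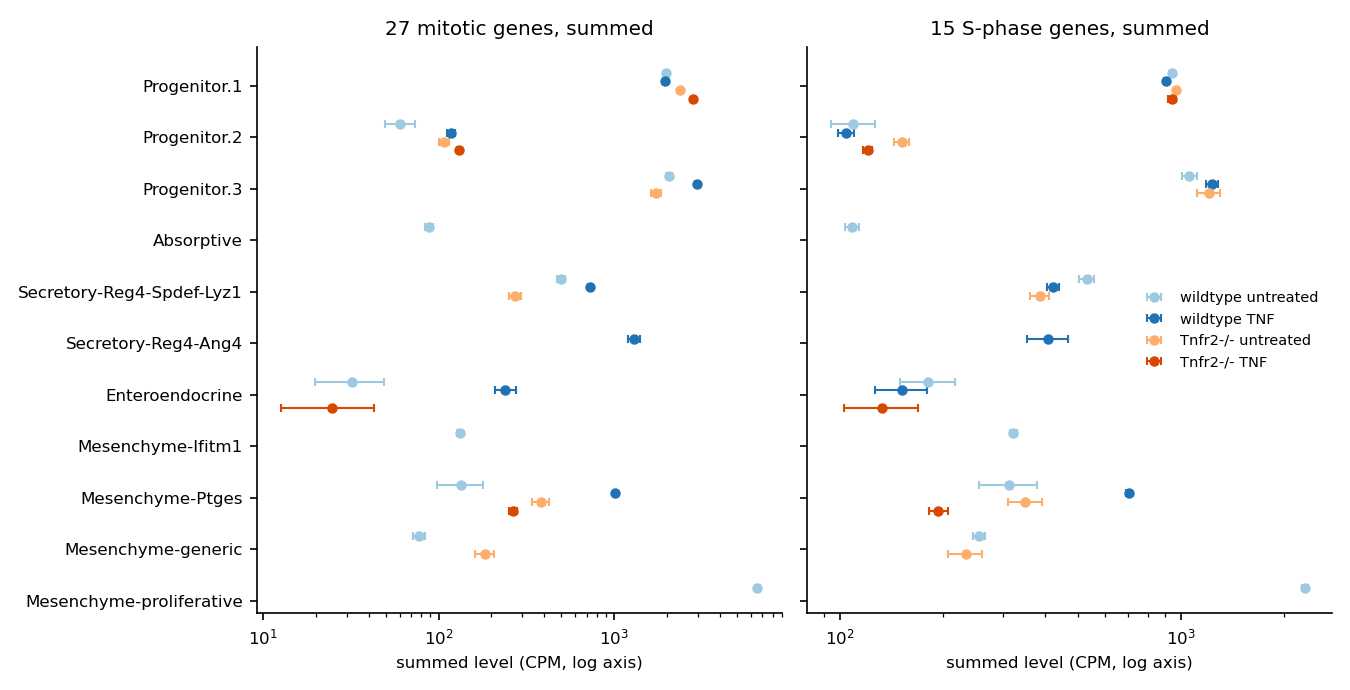
Summed level of the mitotic genes (left) and S-phase genes (right) by class and library (horizontal axis, CPM, log scale), for classes with at least 20 cells. Points are libraries and bars 95% exact Poisson intervals. Progenitor.1 lies at 1949.7 to 2827 CPM for mitotic genes, Progenitor.2 at 60.7 to 131 CPM, and Mesenchyme-proliferative at 6541 CPM.

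Gene by gene, all 44 were lower in Tnfr2-/- than in wildtype epithelium under TNF, with a median log2(CPM + 1) difference of -1.38 against -0.10 over all genes tested. Of the 35 that reached 20 CPM in at least 1 of the 2 libraries, 30 were at least 2-fold lower and 0 higher, where 6.37% of 6073 genes were lower and 5.04% higher. Reaching the minimum through the higher library favours such a count, and of the 13 genes above it in both libraries, 9 were 2-fold lower. TNF against untreated in Tnfr2-/- gave a median of -1.87 (all genes -0.12), with 40 of 41 genes at least 2-fold lower and 0 higher, against a background of 7.81% and 5.55%. Only 13 of the 41 reached the minimum in both libraries and the rest through the untreated one alone, which again favours such a count. All 13 except Pcna were 2-fold lower. This TNF comparison shares the Tnfr2-/- TNF library with the preceding genotype comparison. Without TNF, Tnfr2-/- was slightly higher (median 0.49, 40 of 44 above 0), and TNF in wildtype left a median of -0.07. In neither did any of the 44 genes differ by 2-fold, while 2.42% of genes were higher and 3.59% lower in the former and 2.54% and 1.08% in the latter. Asked of both pairs at the same time, a 2-fold change in 1 direction was therefore found in 0 of the 44. This count follows from the preceding one and adds nothing to it. The background over genes at the minimum in both pairs was 1.13% higher and 1.41% lower for genotype and 0.92% and 0.0721% for TNF.

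Among the proliferation markers and regulators, Mki67, which coats mitotic chromosomes, stood at 103, 125, 147 and 35.9 CPM over epithelial cells (95% Poisson interval of the last 34.1 to 37.8). Top2a, the topoisomerase that untangles replicated DNA, stood at 88.3, 104, 162 and 43.3 CPM. Ccnb1, the cyclin partner of Cdk1, stood at 24.7, 25.3, 37.5 and 10.4 CPM, and Cdk1 itself at 59.8, 57.4, 75.9 and 16.8 CPM. In each of these the Tnfr2-/- TNF library was the lowest and the Tnfr2-/- untreated library the highest. The differences under TNF were -1.77 for Mki67, -1.24 for Top2a, -1.21 for Ccnb1 and -1.71 for Cdk1 on the log2(CPM + 1) scale.

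Kinases and exit factors were lowest in Tnfr2-/- TNF by differing amounts. Plk1 stood at 25.9, 22.0, 41.0 and 9.91 CPM and Aurka, a kinase of the spindle poles, at 16.3, 15.6, 29.7 and 8.70 CPM. Cdc20 stood at 29.4, 24.4, 38.4 and 7.39 CPM, and Birc5, a subunit of the complex that guides chromosome attachment, at 95.2, 74.4, 103 and 18.98 CPM. Birc5 had the largest difference of all 44 between TNF and untreated in Tnfr2-/-, of -2.38. Ube2c (141, 110, 256 and 87.8 CPM) and Tpx2, a spindle assembly factor (40.6, 35.7, 77.6 and 25.2 CPM), were both less than 2-fold apart under TNF, at -0.32 and -0.49. The spindle motors Kif11 (22.7, 21.2, 42.5 and 8.95 CPM) and Kif23 (31.2, 38.8, 50.9 and 24.3 CPM) differed by -1.16 and -0.66.

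Of the S-phase genes, the helicase subunits Mcm2 (16.5, 15.6, 26.1 and 7.44 CPM) and Mcm5 (20.8, 19.7, 30.4 and 6.91 CPM) were lowest in Tnfr2-/- TNF. So were the enzymes of nucleotide supply, with Rrm2 at 31.3, 28.1, 41.7 and 10.7 CPM, Tyms at 67.9, 55.5, 64.4 and 17.5 CPM and Dut at 137, 96.4, 132 and 24.7 CPM. Pclaf had the largest difference of all 44 between genotypes under TNF (69.3, 73.1, 82.3 and 16.0 CPM; -2.12), and Uhrf1, which carries DNA methylation through replication, stood at 22.5, 21.9, 33.3 and 7.14 CPM. Gins2, another helicase subunit, and Tyms and Dut were the 3 genes with the lowest smaller difference over the 2 genotype pairs, and without TNF they differed by only -0.10, -0.07 and -0.05. Stmn1, which destabilises microtubules, stood at 264, 261, 259 and 77.4 CPM, and Hmgb2, a chromatin protein, at 314, 343, 406 and 112 CPM. Stmn1 was thus level in the first 3 libraries and low in the fourth. For TNF the ends over the 2 pairs (wildtype, then Tnfr2-/-) were Pcna (0.24 and -0.39), Kif23 (0.31 and -1.04) and Mcm7, a helicase subunit (0.05 and -1.52), against Dut (-0.50 and -2.37), Ung, which removes uracil from DNA (-0.45 and -1.52), and Cdkn3, a phosphatase that acts on Cdk1 (-0.45 and -1.93). Under TNF the genes not yet named lay between -1.68 (the cyclin Ccna2) and -0.76 (the checkpoint kinase Bub1b) between genotypes.

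Pcna was the exception. It stood at 48.7, 57.9, 72.7 and 55.3 CPM over epithelial cells (intervals 46.8 to 50.7, 55.6 to 60.3, 70.3 to 75.04 and 53.1 to 57.7), so that Tnfr2-/- TNF lay between the other libraries, at -0.06 from wildtype TNF and -0.39 from Tnfr2-/- untreated. Pcna also has roles in DNA repair. Its level in Progenitor.2 was 39.4%, 47.9%, 59.6% and 66.2% of that in Progenitor.1, the highest such share of any of the 15 S-phase genes in every library, whose medians were 8.75%, 9.07%, 13.8% and 9.59%. For the mitotic genes the medians were 1.58%, 4.604%, 3.24% and 4.07%, and the highest was Kif23, at 17.8% to 37.6%. After thinning, 33.0% of Progenitor.1 cells and 22.3% of Progenitor.2 cells of the Tnfr2-/- TNF library held a Pcna UMI, whereas 35.1% and 1.69% held an Mki67 UMI. In the absorptive cells of wildtype untreated, the background class, 8.83% held a Pcna UMI and 3.79% an Mki67 UMI.

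Within Progenitor.1 the same genes lay closer to level than over all epithelial cells. Both lists had genotype medians above 0 in both pairs, the mitotic genes more so. The median difference of the mitotic genes was 0.20 and 0.35 between genotypes (untreated, then TNF) and -0.04 and 0.17 for TNF (wildtype, then Tnfr2-/-), and that of the S-phase genes was 0.15, 0.21, -0.01 and 0.06, against 0.05, -0.04, 0.05 and -0.03 over all genes tested. Mki67 stood at 174, 225, 200.0 and 225 CPM and Cdk1 at 95.6, 91.8, 99.6 and 100.4 CPM. Of the 43 genes at the minimum, 2 were at least 2-fold higher in Tnfr2-/- under TNF and 0 lower, where 1.29% of genes were higher and 2.04% lower. They were Ube2c, at 226, 171, 341 and 496 CPM (1.53), and Tpx2, at 69.2, 63.4, 104 and 156 CPM (1.29). Aurka came next, at 25.8, 25.6, 39.3 and 51.5 CPM (0.98). In all 3 the Tnfr2-/- libraries were the highest in Progenitor.1. At the other end stood Gins2 (22.9, 21.03, 17.5 and 15.0 CPM), Dut (200.5, 153, 167 and 129 CPM) and Stmn1 (415, 423, 326 and 379 CPM), lower in Tnfr2-/- in both pairs.

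For TNF within Progenitor.1 the 3 genes at the upper end were Top2a at 0.33 and 0.42, Nusap1, which bundles spindle microtubules, at 0.32 and 0.59, and Bub1, a checkpoint kinase, at 0.31 and 0.34. Those at the lower end were Dut (-0.39 and -0.37), Cdkn3 (-0.50 and -0.22), and Birc5 (-0.36 and -0.22). None of the 44 genes reached 2-fold for TNF in this class, against a background of 1.84% higher and 0.615% lower (wildtype) or 1.08% and 0.933% (Tnfr2-/-). The same held for genotype without TNF, where 1.15% were higher and 1.1% lower. Cells with mitotic signal in Progenitor.1 held a median of 16, 20.5, 18.5 and 28 thinned mitotic UMIs.

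Some of the 44 genes lie on chromosomes whose other genes were higher in Tnfr2-/- Progenitor.1. Ube2c, Tpx2, Aurka, Bub1, Bub1b, Nusap1, Pcna and Dut are on chromosome 2, and Kif11 is on chromosome 19. The median genotype difference of the 8 genes on chromosome 2 was 0.31 untreated and 0.69 with TNF, and Kif11 was at 0.59 and 0.68, while the 35 other genes were at 0.14 and 0.22. Genes outside the 44 had medians of 0.28 and 0.29 on chromosome 2 and of 0.48 and 0.49 on chromosome 19, against 0.02 and -0.07 on the other autosomes. The part of this shift in the values of single genes was not tested.

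**Figure D5:**
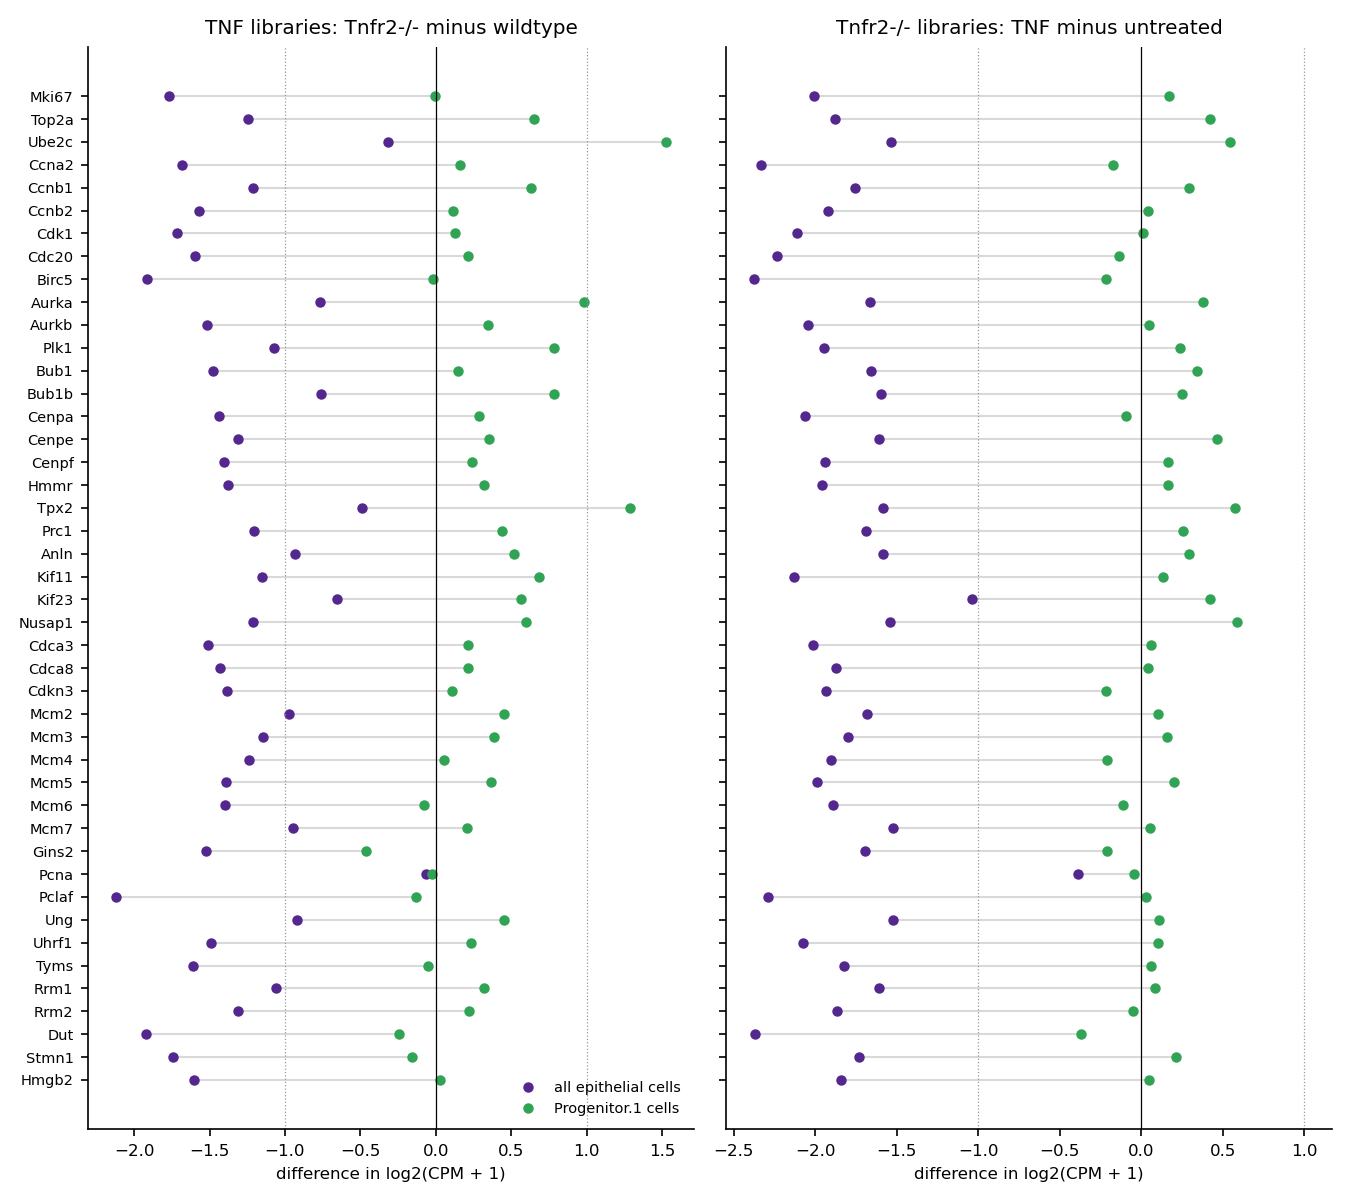
Difference in log2(CPM + 1) (horizontal axis) for each of the 44 genes between Tnfr2-/- and wildtype under TNF (left) and between TNF and untreated in Tnfr2-/- (right), over all epithelial cells (purple) and within Progenitor.1 (green). Dotted lines mark 2-fold. Purple points lie to the left of 0 for every gene (medians -1.38 and -1.87) with Pcna nearest to it in both panels, and green points have medians of 0.24 and 0.10.

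The other genes of the pathway, 36 of S phase and 40 of mitosis in lists that hold none of the 44, showed the same contrast. These lists too were chosen with earlier results of these data known, so the contrast is a description and no separate support. In epithelial sums all 36 and all 40 were lower in Tnfr2-/- than in wildtype under TNF (medians -1.02 and -1.15), and of those at the minimum 6 of 11 and 9 of 13 were at least 2-fold lower, against the background of 6.37%. In Tnfr2-/-, TNF against untreated gave medians of -1.53 and -1.67, with 15 of 17 and 22 of 23 at least 2-fold lower, against 7.81%. Most of these genes reached the minimum through the higher library, which favours such counts, and above it in both libraries stood 2 and 3 genes. Within Progenitor.1 none of these pathway genes was 2-fold changed between genotypes in either pair. The background there was 1.15% higher and 1.1% lower untreated, and 1.29% and 2.04% with TNF. The medians of the pathway genes were 0.17 and 0.11 for S phase and 0.22 and 0.31 for mitosis. Incenp, a partner of Birc5 (36.2, 44.7, 62.4 and 81.3 CPM), and Hells, a chromatin remodeller (62.3, 61.2, 105 and 107 CPM), were the highest in Tnfr2-/-, and both are on chromosome 19. Pttg1, the securin that holds back sister separation (34.3, 35.7, 29.4 and 20.9 CPM), and Tipin, which steadies the replication fork (58.2, 46.8, 52.4 and 42.1 CPM), were the lowest. For TNF the ends were Cep55, needed for the last cut between daughter cells (0.44 and 0.38), and Incenp (0.30 and 0.38) against Tipin (-0.31 and -0.31).

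The mesenchymal cells of the cultures put the libraries in another order. Their mitotic share was 9.32% (132 of 1417), 20.1% (60 of 298), 5.81% (5 of 86) and 2.5% (3 of 120). In Mesenchyme-Ptges, the class with cells in every library, it was 1 of 24, 58 of 296 (19.6%), 2 of 34 and 3 of 120 (2.5%). Under TNF, Tnfr2-/- was 17.1 points below wildtype in this class (interval of the difference -22.5 to -10.7), and 20.97 points below it for S-phase signal. These cells carry 1 class name in both libraries. The classes were clustered on these genes too, so this does not separate class make-up from dividing cells. Mesenchyme-proliferative, a class of its own, held 111, 1, 1 and 0 cells. In the Mesenchyme-Ptges sums all 44 genes were lower in Tnfr2-/- under TNF, 43 of them by at least 2-fold and Aurka by -0.89. Their median was -1.92 against -0.20 over all genes tested. Of the 34 genes at the minimum all 34 were at least 2-fold lower, against a background of 8.52%. Only 7 of the 34 reached the minimum in both libraries and the rest through wildtype TNF alone, which favours such a count, and all 7 were 2-fold lower. Mki67 stood at 11.7, 78.5, 19.2 and 22.6 CPM, Top2a at 29.2, 91.0, 38.4 and 36.7 CPM, and Pcna at 35.0, 68.7, 31.2 and 27.5 CPM. Epithelial markers in these cells summed to 182 CPM in wildtype TNF and 536 CPM in Tnfr2-/- TNF.

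The highest summed level of the mitotic genes was in Mesenchyme-proliferative, which held 111 cells of the wildtype untreated library and 1 each of 2 others. Its mitotic share was 88.3% (98 of 111) and its S-phase share 78.4%, and the mitotic genes summed to 6541 CPM. Mki67 stood at 546 CPM and Stmn1 at 1177 CPM there. By contrast Mesenchyme-Ifitm1, with 892 cells in that library, had a mitotic share of 3.15%, and only 4.62% of its 65 cells with either signal held both, against 66.7% of the 111 in Mesenchyme-proliferative. Of the 65, 37 held S-phase signal alone. Thinned cells of Mesenchyme-Ifitm1 held a mean of 1.51 S-phase UMIs, against 11.7 in Mesenchyme-proliferative. How many of the 37 passed the limit of 5 UMIs from such a low general level was not tested. Relative to the other genes of their list, Pclaf (1.06 on the log2 scale) and the cytokinesis scaffold Anln (1.02) took more of the UMIs in Mesenchyme-proliferative than in Progenitor.1 of that library, and Ung (-1.46) and Dut, which clears dUTP (-1.03), took less.

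Across the 27 sums of a class in a library with at least 20 cells, the genes outside the 44 whose log2(CPM + 1) was most like that of the summed mitotic genes were Dlgap5 (Pearson r = 0.98), Kif4 (0.97), Ndc80 (0.97), Spc24 (0.97), Kif20b (0.97), Ckap2l (0.96), Hist1h1b (0.96), Pbk (0.96), Shcbp1 (0.96) and Depdc1a (0.95). The sums share libraries and depths, so this is a description over 10113 genes. Of the 44 genes themselves, 27 were among the 100 most alike, 22 of them mitotic, and the least alike was Ung, at 0.73. Each mitotic gene is part of the sum it was compared with, so its high rank was favoured from the start.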

How the data were processed

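Single-cell 3' RNA of colonic organoids was read in 4 libraries, 1 per group. The deposited matrix holds whole-number counts of UMIs, a row per gene and a column per cell, which the authors made with Cell Ranger 5.0.0 on mm10 (per the labels) and loaded in monocle3. They removed cells with fewer than 100 UMIs and doublets of epithelial and mesenchymal cells, and named 7 epithelial and 4 mesenchymal classes by Leiden clustering. These classes were used as given. Library totals were 87228093, 56063515, 53178273 and 44547639 UMIs. A deposited score per cell (the size factor) and plotting coordinates were not used. Of 30360 identifiers, 30240 had a position in GENCODE M21 (GRCm38), all 44 genes among them.

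UMIs were summed in each library over a single class or over the epithelial or mesenchymal classes together, and scaled to CPM over the same cells. Differences are on the log2(CPM + 1) scale, which understates those of low genes. A gene counted as changed at 2-fold or more where at least 1 library reached 20 CPM, and that share over all genes is the background. Cells were thinned to 5000 UMIs with a fixed seed. With 1 library per group nothing was tested between groups. Poisson and Clopper-Pearson intervals (95%) cover counting error only. Scrublet, in scanpy 1.11.5 at an expected rate of 0.06, called 46 of 6155 cells doublets (0.747%), of which 25 were among the 35 unclassified cells and 2 among 829 epithelial cells with mitotic signal. None was removed in the main values. On simulated data the counting of 2-fold changes was tested before use. numpy 2.4.6, scipy 1.17.1, pandas 2.3.3 and, for alternative scalings, edgeR 4.0.16 and DESeq2 1.42.0 in R 4.3.3 were used.

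The 44 genes and all lists, including the 36 and 40 pathway genes, were chosen with earlier results of these data known. Full values are given for 19 fixed genes, and for the 3 genes at each end of the smaller difference over both pairs, in epithelial and in Progenitor.1 sums (2 at each end for pathway genes). A pathway gene that this rule names is not reported here. The 10 genes most like the summed mitotic genes were added. Anln, Ccna2, Bub1b and other genes named beside a count were chosen after their values were seen. Alternatives were other thinning depths and limits, pseudocounts, scalings, minimum levels, per-cell means, cells of at least 2000 UMIs, left-out classes, left-out doublets and left-out chromosomes.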

Additional observations from a re-analysis of the deposited data

Results flagged for a closer look

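The genotype difference had opposite signs without and with TNF in 3 measures over all epithelial cells, each in single libraries. The change of sign was not tested. The mitotic share of epithelial cells differed by 4.32 points (Tnfr2-/- minus wildtype) untreated and by -18.4 points with TNF. The S-phase share differed by 4.13 and -15.8 points. The median difference of the 44 genes in epithelial sums was 0.49 and -1.38 on the log2(CPM + 1) scale. Over the 3 progenitor classes alone the sign did not change. There the mitotic share differed by -6.83 and -20.8 points and the S-phase share by -6.10 and -18.0 points.

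The cells without a class entered no comparison, and they held mitotic signal. It was present in 25.8% of 31 such cells in wildtype untreated and in 100% of 4 in Tnfr2-/- untreated, and 25 of these 35 cells were called doublets.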

How the results depend on the processing

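No paired analysis was possible because each group had 1 library. Where 4 shares are given they stand in the order of the report. The result that turned was the epithelial mitotic share. At equal weight of Progenitor.1 and Progenitor.2 (chosen after seeing the data) it was 19.7%, 19.4%, 21.3% and 21.5%, and the genotype difference under TNF became 2.16 points and the TNF difference in Tnfr2-/- 0.179 points. These values are close to fixed by construction, since the classes were clustered on these genes, and they support nothing further. Without Progenitor.3, also chosen after seeing the data, the wildtype shares were 22.5% and 19.4%, and the genotype difference under TNF was -13.5 points. At a limit of 3 UMIs the shares were 29.6%, 29.1%, 35.9% and 8.16%, and TNF in Tnfr2-/- differed by -27.7 points. At 10 UMIs the first 3 shares were 18.4%, 20.6% and 22.6%, and that difference was -17.8 points. Thinned to 2000 UMIs with a limit of 2, wildtype TNF reached 33.5%, the genotype difference under TNF was -26.3 points and the TNF difference in wildtype 7.76 points. With a pseudocount of 10 CPM, 15 genes were at least 2-fold lower in Tnfr2-/- under TNF in place of 30. The cause of these moves was not tested. The other 95 counts of changed genes, 43 epithelial shares and differences, and all 56 Progenitor.1 medians computed under an alternative stayed within the limits set for them. For the Progenitor.1 medians, the limits set the low Poisson end of each gene in 1 library against its high end in the other. Such limits are wide, above all with Tnfr2-/- TNF, so staying within them was a weak check. The number of cells limits Progenitor.1 in Tnfr2-/- TNF, at 95 cells, and depth limits wildtype TNF, where 290 epithelial cells were too shallow to count.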
